A study of Mus musculus with 8 samples.

Results

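The genes described here are 10 transcription factors of the cardiac lineage, chosen by name: Gata4, Gata6, Nkx2-5, Tbx5, Tbx20, Mef2a, Mef2c, Mef2d, Hand2 and Meox1. They are 10 of the 55487 genes in the deposited count table, and all 10 had enough reads to be among the 13648 genes tested. The study asked whether DIZE, which activates angiotensin-converting enzyme II according to the study and is read here as the antiprotozoal diminazene aceturate, alters the diabetic heart. All RNA was heart RNA of db/db mice, a strain that becomes obese and diabetic because its leptin receptor is defective. There were 4 libraries of db/db mice given vehicle and 4 of db/db mice given DIZE. Both groups carry the db mutation, so no comparison with a healthy heart is possible in these libraries. The labels give neither the age nor the sex of the mice, nor the dose, the length of treatment or the part of the heart that was taken. They do not say whether each library came from a separate mouse, so the p-values measure only the spread between these libraries.

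These factors form a mutually reinforcing network that specifies heart muscle in the embryo and is kept on in adult cardiomyocytes. GATA zinc-finger factors, the homeobox factor Nkx2-5 and the T-box factors bind enhancers of contractile and ion channel genes, often side by side, and MEF2 factors couple the same genes to calcium and kinase signalling. Combinations of GATA4, MEF2C and TBX5, with or without HAND2, are known for turning fibroblasts towards a cardiomyocyte-like state. Meox1 is known from the mesoderm of the embryo and, in the injured adult heart, from activated fibroblasts.

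Total counts ranged from 7447664 to 10161623 per library, and the 10 factors had between 85 and 3541 reads each in a library. Cardiomyocyte markers summed to between 29248 and 51236 CPM (the read count scaled to a common library size) in vehicle and between 47267 and 52866 CPM with DIZE, so the markers of the labelled tissue were abundant. The vehicle 1 library stood apart from the rest in several ways that touch the factors. Its 10 cardiomyocyte markers summed lowest of the 8 libraries. Its log2 CPM, taken relative to each gene's mean over the 8 libraries, followed transcript GC content with a Spearman correlation of -0.46 across 13638 genes. Its atrial markers summed to 926 CPM, while the sums were 110.4 to 420 CPM in vehicle 2 to 4 and 87.2 to 216 CPM with DIZE. The differences of the factors and the list medians are therefore given with and without vehicle 1. Such correlations were not limited to that library. On the same relative scale the Spearman correlation with GC content was 0.29 for DIZE 1, -0.08 for DIZE 2, 0.39 for DIZE 3 and 0.38 for DIZE 4. Among the remaining vehicle libraries it was 0.08 (vehicle 2), -0.11 (vehicle 3) and -0.10 (vehicle 4). Since each value is relative to the mean of all 8 libraries, a strong trend in 1 library moves the others the opposite way. The correlations were not computed without vehicle 1. The sample titles also come in different forms, with the letters db (vehicle 1, vehicle 2, DIZE 1 and DIZE 2) or without them (the other 4), which the labels do not explain, and values within each form are given beside those of the factors.

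Of the 10 factors, 7 had a higher mean with DIZE and 3 a lower one, and none passed the threshold of 0.05 on the adjusted p of edgeR's quasi-likelihood test. Over all genes tested, 5 of 13648 passed it, or 0.0366%, and 48.2% lay higher with DIZE. At an unadjusted p under 0.05, 3 of the 10 lay higher (Gata4, Gata6 and Tbx5), against a background of 9.11% of all genes, and 1 lay lower (Meox1), against 10.3%. In 4 of the 10 (Gata4, Gata6, Tbx5 and Mef2d) every DIZE library lay above every vehicle library, against 7.17% of all genes. No factor had every DIZE library below every vehicle library, against 5.26% of all genes. The median log2 fold change of the 10 was 0.24, beside -0.01 over all genes tested, and it was 0.12 without vehicle 1. In bulk tissue, fewer cells of a type and less RNA per cell cannot be told apart. DESeq2 called 1 of the 10, Gata4, with an adjusted p of 0.0131, and it called 606 of all 13648 genes.

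**Figure D1:**
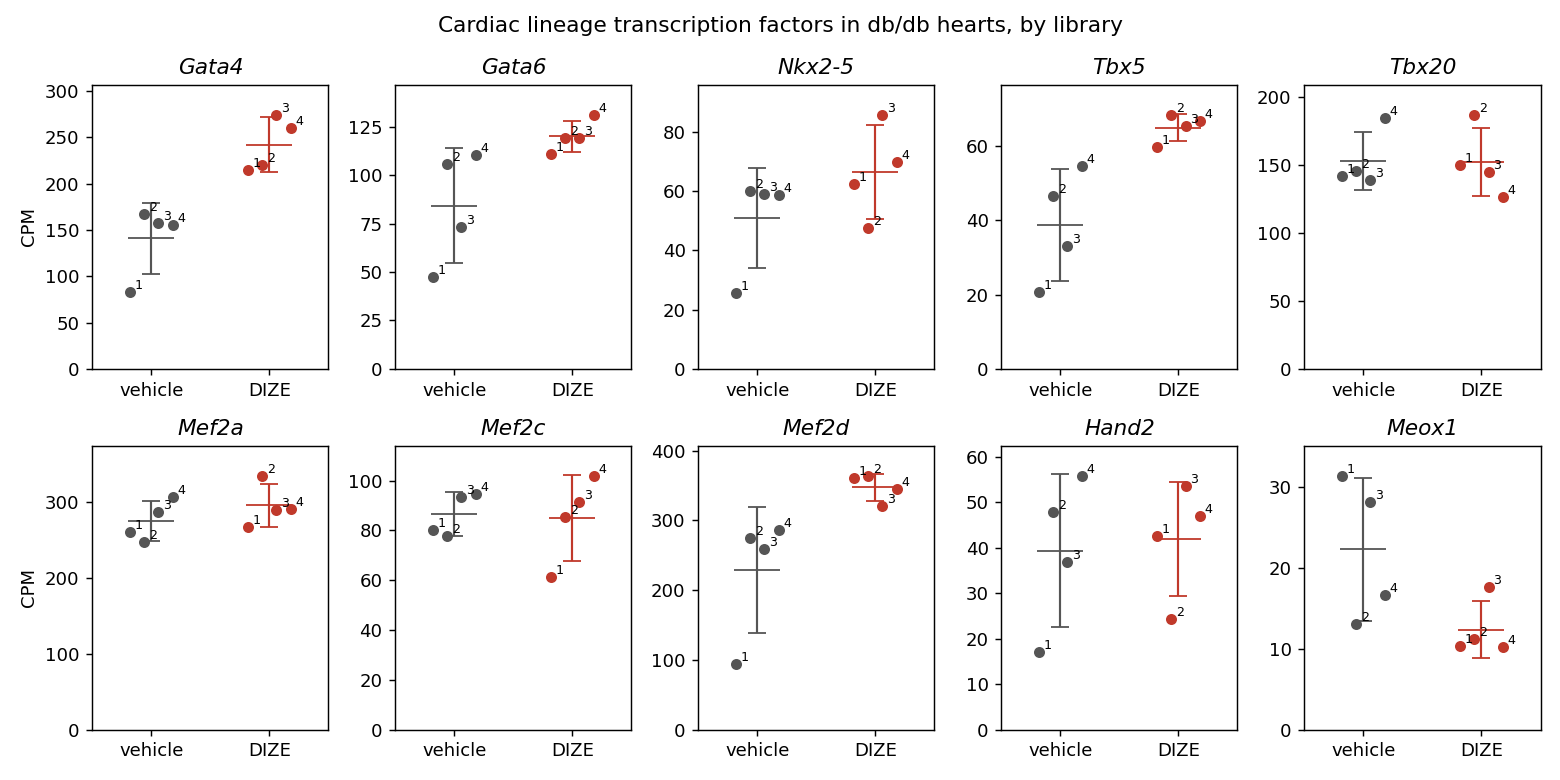
Level of each of the 10 factors in CPM (linear axes from 0) in the 4 vehicle and 4 DIZE libraries, 1 point per library. The DIZE points of Gata4, Gata6, Tbx5 and Mef2d all lie above the vehicle points, and 1 vehicle library lies well below the other vehicle libraries for Gata4, Nkx2-5 and Mef2d.

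Gata4 is the zinc-finger factor that opens cardiac enhancers and drives hypertrophic genes such as Nppa in adult cardiomyocytes. The gene (ENSMUSG00000021944) lies on the minus strand of GRCm38 at chr14:63198922-63271692. Its level was 83.4, 167, 158 and 156 CPM in vehicle 1 to 4 and 214, 219.7, 274 and 260.3 CPM in DIZE 1 to 4. Every DIZE library lay above every vehicle library, and vehicle 1 lay far below the other 3 vehicle libraries. The mean was 141 ± 38.7 CPM (SD, n = 4) in vehicle and 242 ± 29.5 CPM with DIZE, 1.72-fold higher in the fit. On the log2 scale the fold change was 0.78 ± 0.20 (SE; 95% interval 0.35 to 1.21; edgeR adjusted p = 0.102). It was 0.60 without vehicle 1, with an edgeR adjusted p of 0.0681, and 0.80 and 0.77 within the titles with and without db.

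Gata4 was the only one of the 10 factors called under any alternative, in 4 of the 23 tried. Besides DESeq2, these were limma-voom with library weights (adjusted p = 0.0264), the edgeR test with no filter on low counts (adjusted p = 0.0400) and the titles without db alone (edgeR adjusted p = 0.00522). Over all genes, library weights called 561 of 13648, no filter 386 of 28260 and the titles without db alone 1349 of 14103. Over all alternatives its log2 fold change lay between 0.45 and 0.87, and its adjusted p between 0.00522 and 0.583.

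Gata6, the paralogue that acts with Gata4 in cardiomyocytes and is also present in vascular and fibroblast cells, lies on the plus strand at chr18:11052064-11085635 (ENSMUSG00000005836). Its level was 47.4, 106, 73.2 and 110.4 CPM in vehicle 1 to 4 and 111, 119, 119 and 131 CPM in DIZE 1 to 4. The groups did not overlap, but vehicle 2 and vehicle 4 lay close under the lowest DIZE library. The 4 DIZE libraries were close together, with a coefficient of variation of 6.77% against 35.1% in vehicle. Between the groups the log2 fold change was 0.51 ± 0.22 (SE; 95% interval 0.02 to 1.00; edgeR adjusted p = 0.237). Without vehicle 1 it was 0.31, and it was 0.59 and 0.44 within the titles with and without db. A short stretch of 93 exonic bases of Gata6 is shared with the opposite-strand gene 1010001N08Rik, which averaged 10.7 CPM.

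The balance between both GATA factors was much alike in the groups. Per kilobase of exon, Gata4 made up 74.6%, 72.5%, 78.2% and 70.2% of the GATA pair in vehicle 1 to 4, and the DIZE libraries 1 to 4 had 76.3%, 75.5%, 79.3% and 76.8%. These shares overlapped between the groups. With a share of at least 70.2%, Gata4 was the more abundant of the pair, per length of exon, in all 8 libraries.

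Nkx2-5 is the homeobox factor that marks cardiac progenitors and sustains conduction and contractile genes in the adult. It lies on the minus strand at chr17:26838664-26845009 (ENSMUSG00000015579). Its level was 25.8, 60.0, 59.1 and 58.8 CPM in vehicle 1 to 4 and 62.5, 47.6, 85.6 and 69.8 CPM in DIZE 1 to 4. The groups overlapped through DIZE 2, and vehicle 2 to 4 were close together, with vehicle 1 far below them. The log2 fold change of 0.39 ± 0.26 (SE; 95% interval -0.19 to 0.96; edgeR adjusted p = 0.432) was within the spread, and it was 0.16 without vehicle 1 and 0.37 and 0.40 within the titles with and without db.

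Tbx5 is the T-box activator that partners with Gata4 and Nkx2-5 at enhancers of Nppa and conduction genes. It lies on the plus strand at chr5:119832668-119885219 (ENSMUSG00000018263). Its level was 20.6, 46.7, 33.1 and 54.6 CPM in vehicle 1 to 4 and 59.7, 68.3, 65.4 and 66.7 CPM in DIZE 1 to 4. The groups did not overlap, and the vehicle libraries were the more spread, with a coefficient of variation of 38.7% against 5.75% with DIZE. For Tbx5 the log2 fold change was 0.75 ± 0.24 (SE; 95% interval 0.22 to 1.27; edgeR adjusted p = 0.151), a fold of 1.68. It was 0.53 without vehicle 1, and 0.94 and 0.58 within the titles with and without db.

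Tbx20, the T-box factor that keeps adult cardiomyocytes working and can repress as well as activate, had no such difference. It lies on the minus strand at chr9:24718138-24774303 (ENSMUSG00000031965). Its level was 142, 146, 139 and 185 CPM in vehicle 1 to 4 and 150.0, 187, 145 and 127 CPM in DIZE 1 to 4. Both the lowest and the highest of these 8 values were DIZE libraries, and the groups overlapped throughout. The log2 fold change was -0.01 ± 0.14 (SE; 95% interval -0.32 to 0.30; edgeR adjusted p = 0.981). Within the titles with and without db it was 0.23 and -0.25, of opposite sign, and without vehicle 1 it was -0.04.

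The balance of the T-box pair did not overlap between the groups. Per kilobase of exon, Tbx5 made up 27.1%, 45.1%, 37.9% and 43.1% of the pair in vehicle 1 to 4, and the DIZE libraries 1 to 4 had 50.5%, 48.4%, 53.7% and 57.4%. Every DIZE library lay above every vehicle library, with vehicle 2 closest to the DIZE range. In CPM the ratio of Tbx5 to Tbx20 was 0.15, 0.32, 0.24 and 0.30 in vehicle 1 to 4, and the DIZE libraries 1 to 4 had 0.40, 0.37, 0.45 and 0.53. The ratio was not tested, since it was looked at with the values of both genes known. Shares and ratios are not adjusted for GC content, which was 51.3% for the Tbx5 transcript and 42.3% for that of Tbx20. After removal of a trend on GC content and length, the log2 fold changes were 0.70 for Tbx5 and 0.24 for Tbx20, against 0.75 and -0.01 before.

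Hand2 is a basic helix-loop-helix factor of the right ventricle and of the sympathetic lineage, also found in cardiac fibroblasts. It lies on the plus strand at chr8:57320983-57324633 (ENSMUSG00000038193). Its level was 17.1, 47.8, 36.7 and 55.7 CPM in vehicle 1 to 4 and 42.5, 24.3, 53.6 and 46.9 CPM in DIZE 1 to 4. Vehicle libraries were both the lowest and the highest, and Hand2 had the widest vehicle spread of the 10 factors, with a coefficient of variation of 42.5%. The log2 fold change was 0.09 ± 0.33 (SE; 95% interval -0.65 to 0.83; edgeR adjusted p = 0.907), and its sign turned to -0.16 without vehicle 1. Within the titles with and without db it was 0.05 and 0.11. Its values are uncertain: 461 exonic bases, 19.6% of its exonic length, are shared with the opposite-strand gene Hand2os1, which averaged 88.9 CPM, and the sources used here do not say whether reads were counted by strand. Hand1, its paralogue, had 0 reads in all 8 libraries.

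Meox1 was the one factor that lay lower with DIZE beyond 1 SE. It is a homeobox factor of the somites that in the stressed adult heart marks activated fibroblasts. It lies on the minus strand at chr11:101877510-101894374 (ENSMUSG00000001493). Its level was 31.3, 13.1, 28.2 and 16.6 CPM in vehicle 1 to 4 and 10.4, 11.2, 17.6 and 10.24 CPM in DIZE 1 to 4. The groups overlapped, since DIZE 3 lay above vehicle 2 and vehicle 4. Its log2 fold change was -0.85 ± 0.28 (SE; 95% interval -1.47 to -0.22; edgeR adjusted p = 0.161), a level 1.80-fold higher in vehicle. It was -0.63 without vehicle 1 and -1.04 and -0.67 within the titles with and without db.

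The paralogue Meox2, taken from a list of other lineage factors, lay the same way. It averaged 26.1 ± 3.54 CPM in vehicle and 17.8 ± 1.96 CPM with DIZE (SD, n = 4), and every DIZE library lay below every vehicle library. Its log2 fold change was -0.55 ± 0.14 (SE; edgeR adjusted p = 0.101), and -0.47 without vehicle 1.

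Fibroblast genes are given beside Meox1, and none of them was called. Of 11 tested genes of activated fibroblasts, 9 lay lower and 2 lay higher, and their median was -0.66 on the log2 scale (-0.63 without vehicle 1). At an unadjusted p under 0.05, 6 lay lower, against 10.3% of all genes, and 1 lay higher, against 9.11%. The one that lay higher was Ccn2, a matricellular growth factor, named after its values were seen, at 0.78 ± 0.29 (SE; edgeR adjusted p = 0.185) and 0.89 without vehicle 1. The 11 genes summed to between 449.7 and 646 CPM in vehicle and between 353 and 515 CPM with DIZE. Postn, a matrix protein of activated fibroblasts, was at 249, 70.9, 126 and 105 CPM in vehicle 1 to 4 and at 41.8, 44.3, 63.3 and 45.9 CPM in DIZE 1 to 4, so the groups did not overlap. Cilp, another matrix protein, had a log2 fold change of -1.06 ± 0.19 (SE; edgeR adjusted p = 0.0707). Of 12 general fibroblast markers 9 lay lower and 3 higher, with a median of -0.21 that was -0.05 without vehicle 1, and -0.51 and 0.04 within the titles with and without db. Their sums overlapped, at 3468 to 4806 CPM in vehicle and 2970 to 4631 CPM with DIZE. The collagen receptor Ddr2 had -0.81 ± 0.18 (SE; edgeR adjusted p = 0.0888), while the lineage marker Pdgfra averaged 80.5 ± 24.3 CPM in vehicle and 69.6 ± 8.14 CPM with DIZE (SD, n = 4). The part of fibroblast number or state in the Meox1 values was not tested.

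**Figure D2:**
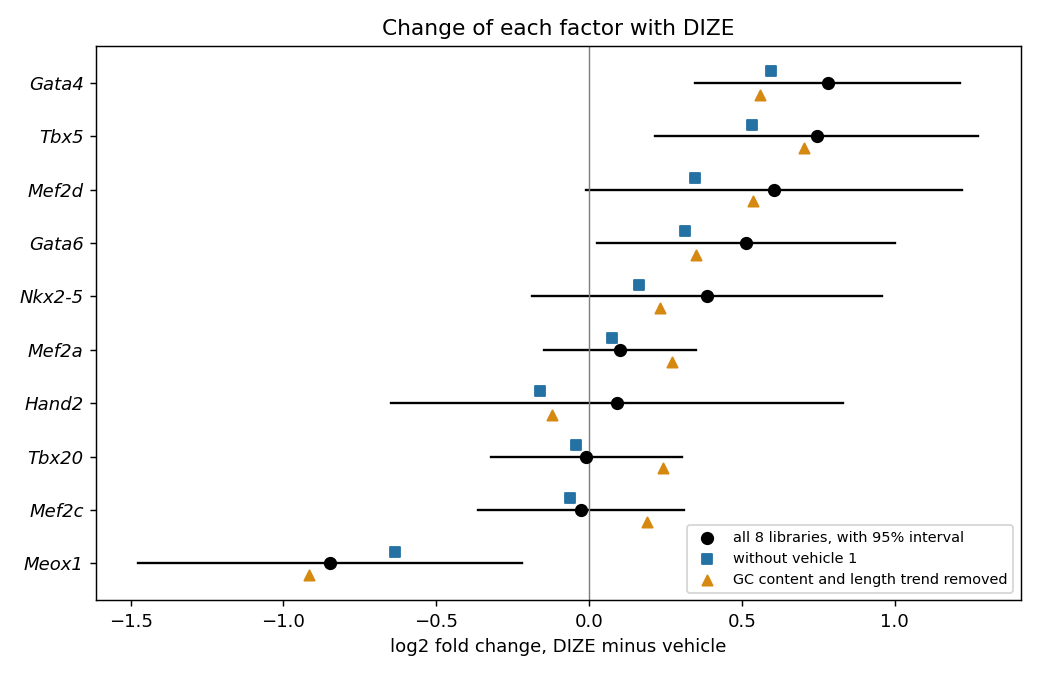
Difference between DIZE and vehicle for each of the 10 factors on the log2 scale, with 95% intervals from the edgeR fit over all 8 libraries (black), without vehicle 1 (blue squares) and after a trend on GC content and length was removed (orange triangles). Gata4 is at 0.78 and Meox1 at -0.85, and leaving out vehicle 1 brings the higher-lying factors closer to 0.

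The MEF2 factors are MADS-box proteins that share one DNA site and are held in check by class II histone deacetylases until calcium or kinase signals release them. Mef2a is the main one in adult heart muscle, Mef2c is needed in the embryonic heart, and Mef2d takes part in stress-driven remodelling. The promoters of these paralogues are shown because Mef2d alone of the 3 had groups that did not overlap, so that the start regions of the 3 genes can be read side by side. Each line gives the 250 bases before the RefSeq start site (GRCm38.p6), with capitals marking the GC box, GGGCGG, on either strand. Mef2a lies at chr7:67372859-67373108 (minus strand), Mef2c at chr13:83503784-83504033 (plus strand, the first of its 3 listed start sites) and Mef2d at chr3:88142122-88142371 (plus strand).
Mef2a: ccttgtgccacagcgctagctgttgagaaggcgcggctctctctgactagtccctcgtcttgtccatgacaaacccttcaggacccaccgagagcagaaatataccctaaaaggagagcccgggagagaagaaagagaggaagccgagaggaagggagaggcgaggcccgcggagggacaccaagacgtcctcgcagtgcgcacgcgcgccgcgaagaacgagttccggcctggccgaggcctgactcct
Mef2c: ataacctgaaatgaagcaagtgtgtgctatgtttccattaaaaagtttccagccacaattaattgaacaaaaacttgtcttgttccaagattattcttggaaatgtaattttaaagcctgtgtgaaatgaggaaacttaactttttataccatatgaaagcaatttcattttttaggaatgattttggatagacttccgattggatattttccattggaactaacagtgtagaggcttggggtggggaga
Mef2d: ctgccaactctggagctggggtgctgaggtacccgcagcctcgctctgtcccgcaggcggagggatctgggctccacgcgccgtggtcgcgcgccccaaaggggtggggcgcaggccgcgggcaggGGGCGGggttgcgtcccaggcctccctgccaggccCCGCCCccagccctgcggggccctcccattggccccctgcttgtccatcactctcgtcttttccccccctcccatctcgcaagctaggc
The Mef2d promoter was 73.2% G or C with 19 CG pairs and 1 GC box on each strand, and that of Mef2a was 61.6% with 21 CG pairs and no GC box. The Mef2c promoter shown was 33.6% G or C with 1 CG pair, and those at its other start sites were 44.8% with 6 CG pairs and 1 GC box, and 49.6% with 4 CG pairs and none. The median was 52.4% over 32841 mouse promoters of the same length. Of those promoters 32.7% hold a GC box on either strand. A search of both strands for the MEF2 site, the SRF CArG box, AGATAA (bound by GATA factors) and GGTGTGA (a T-box motif) found none in these 3 windows, and among all promoters 2.92%, 1.47%, 9.99% and 3.33% hold them. The Mef2c window held CANNTG (an E-box, read alike on both strands) at 2 places, 1 of them overlapping AAGTG (bound by NK2 factors), and TATAAA on the reverse strand. Among all promoters 66.2%, 40.7% and 12.4% hold these. The windows of Mef2a and Mef2d held none of these 3 motifs, and a match or its absence is a description of these letters.

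Mef2d (ENSMUSG00000001419, chr3:88142372-88172086) had the widest gap of the MEF2 genes between the groups. Its level was 93.9, 274, 258 and 287 CPM in vehicle 1 to 4 and 361, 364, 320.1 and 345 CPM in DIZE 1 to 4. Every DIZE library lay above every vehicle library, and vehicle 1 was far below all the others. The mean was 228 ± 90.4 CPM in vehicle and 347 ± 19.9 CPM with DIZE (SD, n = 4). For Mef2d the log2 fold change was 0.61 ± 0.28 (SE; 95% interval -0.01 to 1.22; edgeR adjusted p = 0.266). Vehicle 1 carried much of it: without that library it was 0.35, and it was 0.98 and 0.29 within the titles with and without db.

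Mef2a (ENSMUSG00000030557, chr7:67231163-67372858, minus strand) had the narrowest spread of the 10 factors in vehicle. Its level was 260.4, 248, 287 and 307 CPM in vehicle 1 to 4 and 268, 334, 290.1 and 291 CPM in DIZE 1 to 4. The groups overlapped, and the coefficient of variation was 9.55% in vehicle and 9.43% with DIZE. For Mef2a the log2 fold change was 0.10 ± 0.11 (SE; 95% interval -0.15 to 0.35; edgeR adjusted p = 0.651).

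Mef2c (ENSMUSG00000005583, chr13:83504034-83667080) was at 80.2, 77.9, 93.5 and 94.8 CPM in vehicle 1 to 4 and at 61.2, 85.4, 91.6 and 101.8 CPM in DIZE 1 to 4. Both the lowest and the highest library were DIZE libraries, so the groups overlapped. The log2 fold change was -0.03 ± 0.15 (SE; 95% interval -0.36 to 0.31; edgeR adjusted p = 0.944). Without vehicle 1 it was -0.06, and that of Mef2a was 0.07. Within the titles with and without db it was -0.11 and 0.04, and that of Mef2a was 0.25 and -0.03.

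Per kilobase of exon, Mef2d was the leading MEF2 gene in every library but vehicle 1. It made up 40.7%, 67.7%, 62.8% and 64.0% of the 3 genes in vehicle 1 to 4, and the DIZE libraries 1 to 4 had 73.1%, 68.3%, 67.6% and 68.7%. The groups overlapped, since vehicle 2 lay just above DIZE 3. The order depends on the length used: per kilobase of the longest transcript, Mef2d made up 38.6% ± 10.9 in vehicle and 49.1% ± 2.98 with DIZE (SD, n = 4), and Mef2a 48.1% ± 8.70 and 40.6% ± 1.82. The ratio of Mef2d to Mef2a in CPM was 0.36 in vehicle 1, 0.90 to 1.10 in the other vehicle libraries and 1.09 to 1.35 with DIZE.

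**Figure D3:**
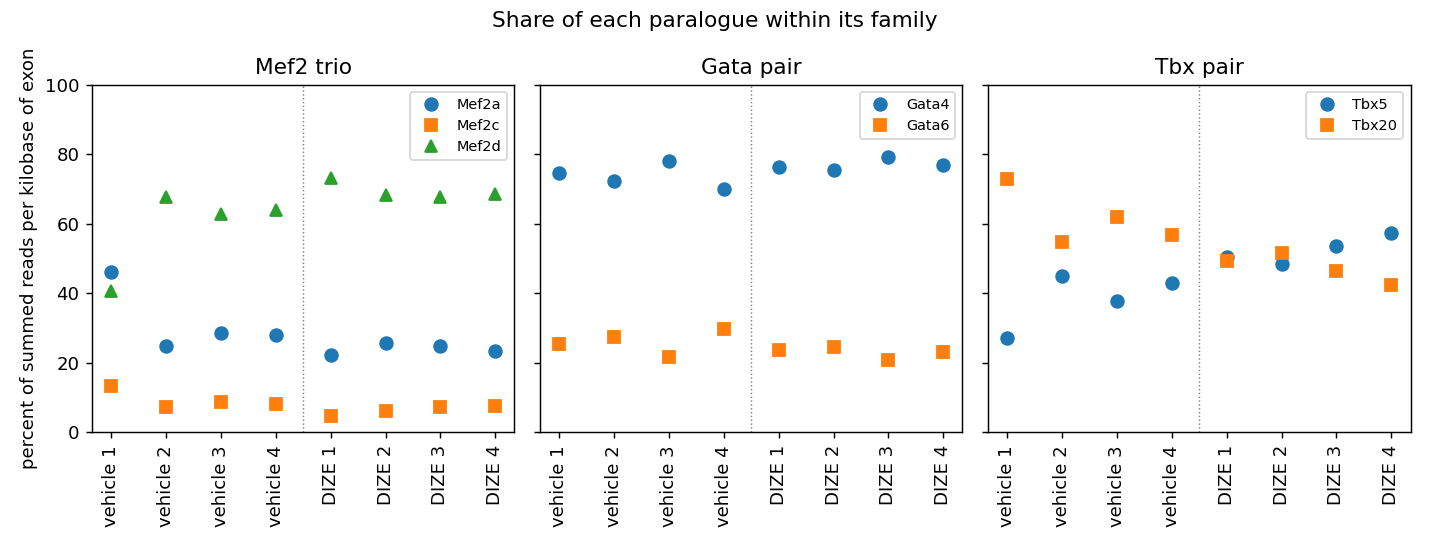
Share of each gene within its family (percent of the summed reads per kilobase of exon, axis from 0 to 100) in each of the 8 libraries, for the MEF2, GATA and T-box genes, with a dotted line between the groups. Tbx5 lies between 27.1% and 45.1% in vehicle and between 48.4% and 57.4% with DIZE, and the Mef2d share is lowest in vehicle 1. The shares are not adjusted for GC content.

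Per kilobase of exon, the highest levels among the 10 belonged to Mef2d, Gata4 and Nkx2-5. In vehicle they had 38.2 ± 15.1, 36.1 ± 9.90 and 29.6 ± 9.76 CPM per kilobase (SD, n = 4), within their spread between libraries. Inside every vehicle library, though, Nkx2-5 lay below both Mef2d and Gata4, while Mef2d lay below Gata4 in vehicle 1 only. Mef2a (18.8 ± 1.79), Hand2 (16.7 ± 7.12), Gata6 (12.9 ± 4.55), Tbx20 (12.7 ± 1.78), Meox1 (10 ± 3.96) and Tbx5 (8.29 ± 3.21) followed, each within the spread of the next, and Mef2c (5.51 ± 0.56) was lowest. With DIZE the order began with Gata4 (62.0 ± 7.55) and Mef2d (58.0 ± 3.32), again within their spread, then Nkx2-5 (38.6 ± 9.18). Mef2a (20.1 ± 1.90), Gata6 (18.4 ± 1.25), Hand2 (17.8 ± 5.32), Tbx5 (13.9 ± 0.80) and Tbx20 (12.7 ± 2.09) lay between, with neighbours within their spread, and Meox1 (5.54 ± 1.58) and Mef2c (5.41 ± 1.10) were lowest. By the longest transcript instead, Mef2a came first in vehicle (49.8) and came after Gata4 and Mef2d with DIZE (53.4).

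Several factors shared a pattern over the libraries. Gata6 and Tbx5 were the most alike pair, with a Pearson correlation of log2 CPM of 0.98 over the 8 libraries and 0.96 without vehicle 1. Gata4 had 0.93 with Tbx5 and 0.91 with Gata6, which were 0.77 and 0.70 without vehicle 1. Nkx2-5 and Mef2d had 0.84 over all libraries and -0.01 without vehicle 1, so that likeness rested on a single library. Vehicle 1 was the lowest library for 6 of the 10 factors (Gata4, Gata6, Nkx2-5, Tbx5, Mef2d and Hand2) and the highest for Meox1. These correlations pool both groups, so a difference between the groups that genes have in common raises them. Correlations within the groups were not computed. The genes also share the libraries, their depth and their base composition, so the values are given as descriptions.

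The differences also followed the base composition of the transcripts. Over 13638 genes the log2 fold change had a Spearman correlation of 0.39 with the GC content of the longest transcript. The median log2 fold change was -0.15 in the fifth of genes with the lowest GC content (30.7% to 43.8%) and 0.20 in the fifth with the highest (55.4% to 75.5%). The factors with transcripts of low GC content, Mef2c (40.8%), Mef2a (42.0%) and Tbx20 (42.3%), had values between -0.03 and 0.10, above the median of the fifth they belong to. Those of Gata4 (57.4%), Gata6 (55.3%), Mef2d (55.0%) and Tbx5 (51.3%) lay above the medians of theirs, at 0.51 to 0.78, while Hand2 (59.3%) lay below and Meox1 (52.4%) far below. After removal of a GC content and length trend per library, Gata4 was at 0.56 ± 0.13 (SE; edgeR adjusted p = 0.0891), Tbx5 at 0.70, Mef2d at 0.54, Gata6 at 0.35 and Meox1 at -0.92. Nkx2-5, with the highest GC content of the 10 (67.1%), was at 0.23, against 0.39 before, and Mef2a at 0.27, against 0.10. With vehicle 1 left out as well, Gata4 was at 0.45, Tbx5 at 0.52, Mef2d at 0.33, Gata6 at 0.21, Nkx2-5 at 0.10, Mef2a at 0.22 and Meox1 at -0.69, each with its sign kept. Tbx20 was at 0.20, Mef2c at 0.13 and Hand2 at -0.32, each with its sign turned.

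**Figure D4:**
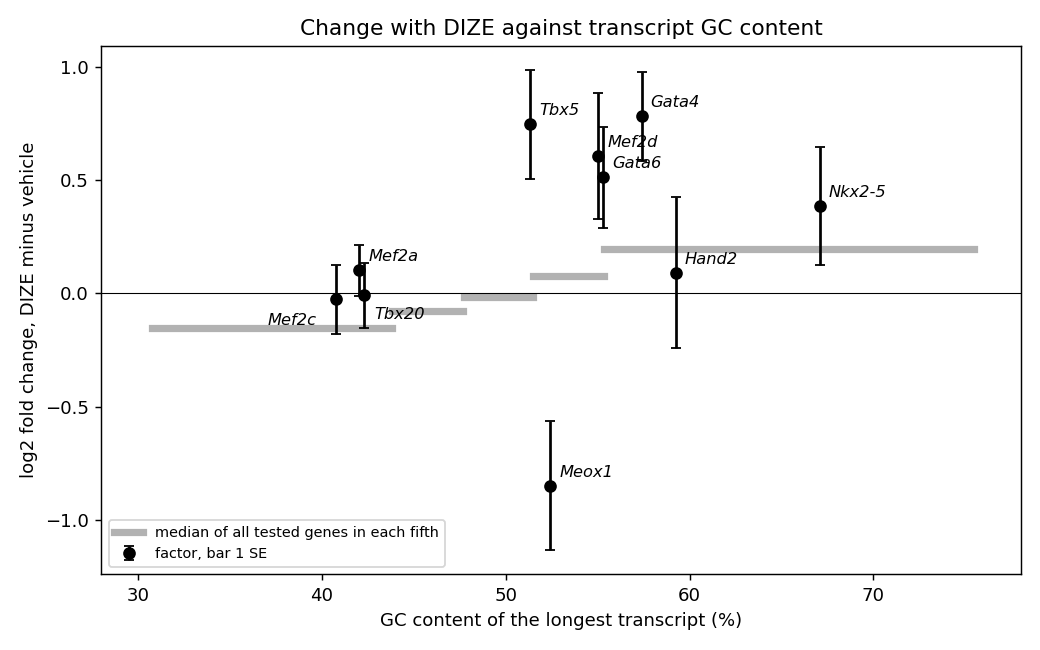
Log2 fold change (DIZE minus vehicle) of each factor with 1 SE against the GC content of its longest transcript (percent), over grey bars for the median of all tested genes, in 5 bands of GC content. The grey bars climb from -0.15 to 0.20, and Gata4, Gata6, Mef2d and Tbx5 lie above them while Meox1 lies below.

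The partners of these factors came from lists of known cofactors. Of 16 coactivators and DNA-binding partners, 10 lay higher and 6 lower, none was called, 4 had an unadjusted p under 0.05 (all higher), and the median log2 fold change was 0.15 (-0.02 without vehicle 1). Over all genes, 48.2% lay higher and 9.11% had such a p in the higher direction (21.4% in the fifth with the highest GC content). In the same 4 every DIZE library lay above every vehicle library, against 7.17% of all genes. Cited2, which recruits CBP and p300 to TFAP2 and other factors, averaged 48.5 ± 8.49 CPM in vehicle and 76.4 ± 14.3 CPM with DIZE (SD, n = 4), with a log2 fold change of 0.66 ± 0.16 (SE; edgeR adjusted p = 0.101). Srf, the MADS-box factor of contractile genes, averaged 76.1 ± 20.8 and 120 ± 5.12 CPM, at 0.65 ± 0.19 (SE; edgeR adjusted p = 0.126). The chromatin remodelling subunits Smarca4, the Brg1 ATPase, and Smarcd3, known as Baf60c and needed by Gata4 and Tbx5 in the embryo, had log2 fold changes of 0.58 ± 0.20 and 0.48 ± 0.15 (SE; edgeR adjusted p of 0.170 and 0.148). Smarcd3 shares 48.2% of its exonic length with Chpf2 (11.5 CPM), so its value is uncertain. Without vehicle 1 Cited2 was at 0.60, Srf at 0.47 and Smarca4 at 0.38. The transcripts of Srf, Smarca4 and Smarcd3 belong to the fifth with the highest GC content.

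Of 14 MEF2 corepressors and the kinases that act on them, 11 lay higher and 3 lower, while 48.2% of all genes lay higher. None was called, and the median was 0.12 (0.04 without vehicle 1, so much of the lean rested on that library). The kinase Mark2, which phosphorylates class II histone deacetylases, averaged 55.0 ± 17.2 CPM in vehicle and 85.04 ± 4.16 CPM with DIZE (SD, n = 4), at 0.63 ± 0.21 (SE; edgeR adjusted p = 0.158). Hdac5, a deacetylase that holds MEF2 silent, averaged 93.9 ± 18.5 and 128 ± 18.6 CPM, at 0.44 ± 0.16 (SE; edgeR adjusted p = 0.182). Both had no overlap between the groups, as had 7.17% of all genes in that direction. Both transcripts belong to the fifth with the highest GC content, for which that share was not computed. Without vehicle 1 both lay closer to 0, at 0.42 and 0.31. Hdac7 was at 0.31 ± 0.16 and the kinase Prkd2 at -0.31 ± 0.19 (SE), with overlapping groups.

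Among 22 other lineage and chamber factors, 15 had enough reads to be tested, of which 10 lay higher and 5 lower, with a median of 0.14 and none called. The median was 0.05 without vehicle 1, with the filter on low counts applied again. The ventricular homeobox factor Irx4 was at 21.4, 34.8, 36.7 and 37.3 CPM in vehicle 1 to 4 and 43.3, 52.4, 67.6 and 54.5 CPM in DIZE 1 to 4, without overlap, at 0.74 ± 0.19 (SE; edgeR adjusted p = 0.102). Its relative Irx3, which acts in the conduction system, averaged 36.0 ± 10.9 and 71.0 ± 27.8 CPM (SD, n = 4) and was at 0.98 ± 0.31 (SE; edgeR adjusted p = 0.144), with DIZE 2 inside the vehicle range. Hey1, a Notch target of the atrial lineage and endothelium, was at -0.66 ± 0.23 (SE; edgeR adjusted p = 0.169). Without vehicle 1 the values were 0.59 for Irx4, 0.78 for Irx3 and -0.74 for Hey1. Among those not tested, the progenitor factors Mesp1 and Isl1 had 0 and 3 reads over the 8 libraries together, and Gata5 had 41.

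**Figure D5:**
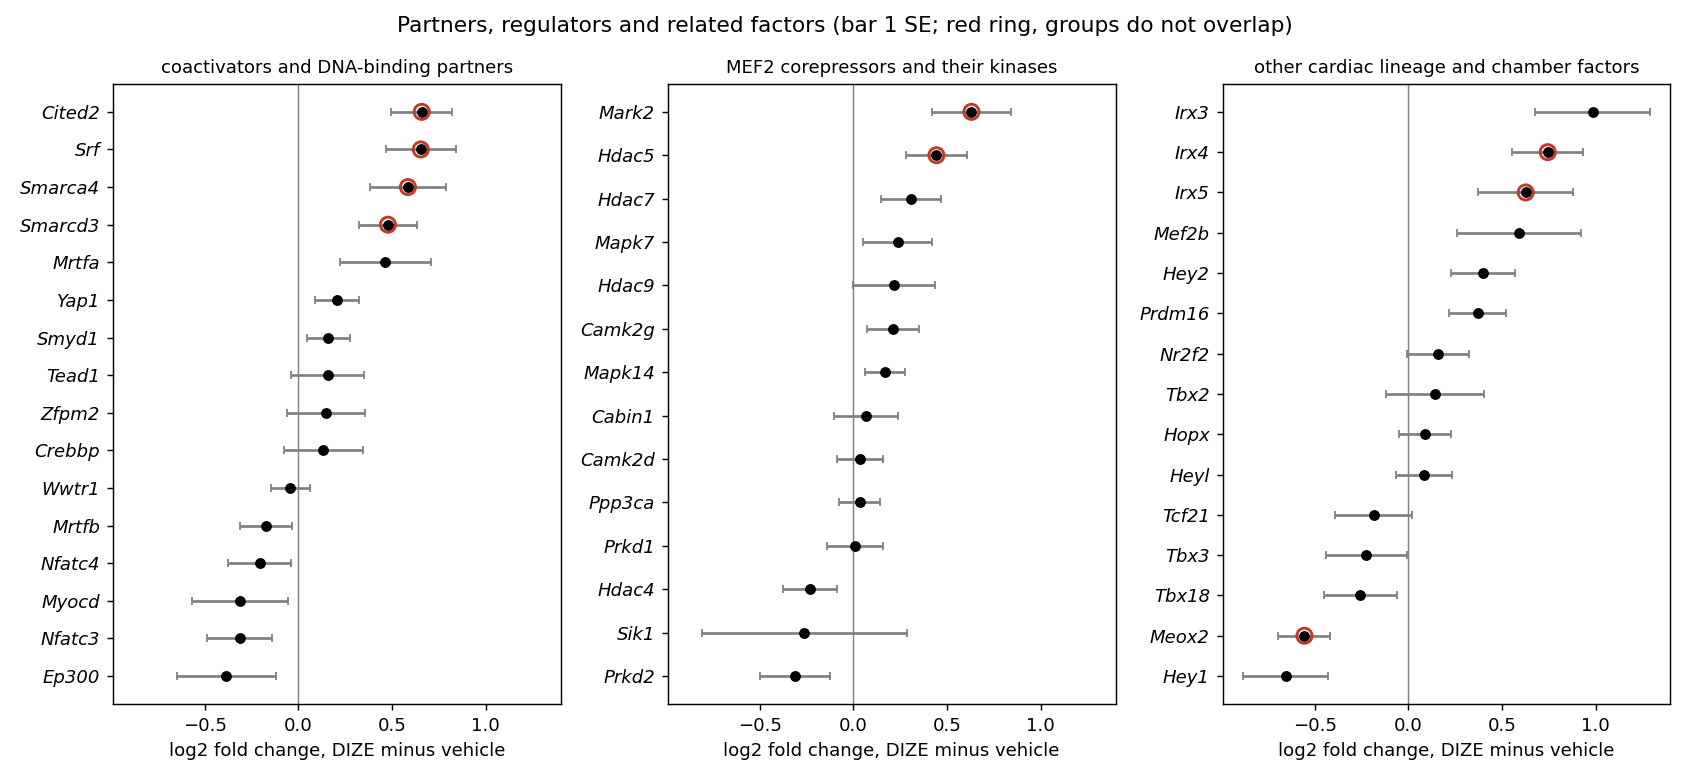
Log2 fold change (DIZE minus vehicle) with 1 SE for each tested gene of 3 lists: coactivators and DNA-binding partners, MEF2 corepressors and their kinases, and other cardiac lineage and chamber factors. Red rings mark genes whose groups do not overlap, such as Cited2 at 0.66, Mark2 at 0.63, Irx4 at 0.74 and Meox2 at -0.55.

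Genes that these factors are known to drive gave no call either. Of 25 cardiomyocyte target genes, 17 lay higher and 8 lower, while 48.2% of all genes lay higher. The median was 0.08 (0.01 without vehicle 1). At an unadjusted p under 0.05, 3 lay higher, against 9.11% of all genes, and 1 lay lower, against 10.3%. Kcnh2, the channel of the rapid repolarising potassium current, averaged 92.0 ± 24.0 CPM in vehicle and 149.9 ± 17.3 CPM with DIZE (SD, n = 4), without overlap, at 0.71 ± 0.18 (SE; edgeR adjusted p = 0.107). Nppa, the atrial natriuretic peptide and a classical target of Gata4, Tbx5 and Nkx2-5, was at 84.5, 26.9, 32.3 and 43.1 CPM in vehicle 1 to 4 and 21.0, 10.9, 29.4 and 29.4 CPM in DIZE 1 to 4. Its value was -1.04 ± 0.39 (SE; edgeR adjusted p = 0.199), of the opposite sign to that of Gata4 and Tbx5, and -0.58 without vehicle 1. The sarcomere genes Tnnt2 and Des were at 0.28 ± 0.11 and 0.37 ± 0.16 (SE), or 0.24 and 0.22 without vehicle 1, and the myosin heavy chain Myh6 at 0.29 ± 0.20, or 0.10 without vehicle 1.

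Markers of heart chambers also differed between libraries. All 6 ventricular markers lay higher with DIZE, with a median of 0.33 (0.28 without vehicle 1). Of these, 4 had an unadjusted p under 0.05, against 9.11% of all genes in that direction. Among the 4 are Irx4 and Hey2, which are also on the list of other lineage and chamber factors. The 6 markers summed to 6170 to 7994 CPM in vehicle and 6547 to 7583 CPM with DIZE, and the most abundant, Myl2, was at 0.01 ± 0.11 (SE). Of 9 tested atrial markers 8 lay lower, with a median of -1.04 (-0.58 without vehicle 1). Both medians are the values of Nppa, which is an atrial marker as well as one of the target genes above. The atrial myosin light chain Myl7 was at 279, 21.8, 0.67 and 107.8 CPM in vehicle 1 to 4 and 1.34, 0.79, 15.4 and 42.1 CPM in DIZE 1 to 4, so both groups held libraries in which it was above 15 CPM and libraries near or under 1 CPM. Bmp10, another atrial gene, had 134, 0, 3 and 142 reads in vehicle 1 to 4 and 0 in every DIZE library, so it was at or near 0 in vehicle 2 and vehicle 3 as well. With the Myl7 level as a covariate, Gata4 was at 0.74. Of 8 macrophage markers 7 lay lower, with a median of -0.41 (-0.17 without vehicle 1), summing to 593 to 1113 CPM in vehicle and 562 to 615 CPM with DIZE, and of 10 endothelial markers 8 lay lower, with Pecam1 at 241 ± 37.3 and 221 ± 23.5 CPM (SD, n = 4). Myl7 is an atrial marker, so that covariate does not address macrophages or endothelium. Their part in the values of the 10 factors was not tested.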

How the data were processed

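RNA-seq was made from 8 heart libraries. Per the labels' protocols, poly(A) RNA was selected and libraries were made with a stranded kit and sequenced as pairs on a NovaSeq. The tools listed in the submitters' processing notes were edgeR, HTSeq 0.6.1p1, R 4.1 and STAR 2.7.3, with the build mm10. The sources used here do not give their settings, the annotation release or whether reads were counted by strand. The authors deposited raw counts per Ensembl gene, not normalized, with 0 columns from other samples. Symbols were matched for 55141 genes and 346 had none.

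Groups were compared with edgeR's quasi-likelihood test (version 4.0.16, R 4.3.3, two-sided, robust, TMM, filterByExpr with a minimum count of 10 and total of 15, no covariate), adjusted by Benjamini-Hochberg over all genes tested at 0.05. For CPM, a count was divided by the effective size of its library (reads in tested genes, multiplied by the TMM factor), while levels of overlapping genes are per library total. Means and SDs are over 4 libraries. At these totals (given above) low genes carry large counting error. Exon lengths, GC content and overlaps came from GENCODE M21 (GRCm38). Promoters came from RefSeq (GRCm38.p6) and were taken for 6 of the 10 genes, with chromosome 18, where Gata6 lies, left out. A chi-square over genes for each 2 libraries was at least 5.46 per degree of freedom, so none was counted as a repeat.

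The members and lists were chosen with earlier results of these data known, and some lists share genes. Besides the 10 factors, up to 4 genes with the smallest unadjusted p per list are named, with Myl7, Myl2, Myh6, Pdgfra and Pecam1, and for each factor the 2 tested genes that had the highest correlation of log2 CPM (prior count 2) among genes averaging 10 CPM or more. Bmp10, Ccn2, Hand1, Isl1, Mesp1 and Gata5, and the overlapping genes, were named after their values were seen. Alternatives were DESeq2 1.42.0, limma-voom (limma 3.58.1) without library weights and with them, other size factors and filters (no filter, and 1 CPM in 4 libraries), title form or title number as a block, Myl7 as a covariate, a GC content and length trend removed, the fit without its robust option, and each library left out. The title forms taken alone, and vehicle 1 left out with the GC trend removed, were added after the data were seen. The procedure was tested on simulated data.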

Additional observations from a re-analysis of the deposited data

Results flagged for a closer look

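Looked at were 52 groups of 4 libraries (10 factors and 16 gene lists, in each treatment). Of these, 8 held a library farther from the other 3 than Dixon's 95% critical value for 4 samples allows. Chance alone would give about 1 in 20 of independent groups. These groups reuse the same 8 libraries and correlated genes, so the numbers cannot be set against each other. Most of the flagged groups involve vehicle 1. Gata4 was at 83.4 CPM in vehicle 1, with the other vehicle libraries at 156 to 167 CPM. Nkx2-5 was at 25.8 CPM there, against 58.8 to 60.0 CPM, and Mef2d at 93.9 CPM, against 258 to 287 CPM. The coactivators and DNA-binding partners summed to 1279 CPM in vehicle 1, against 1755 to 1795 CPM, and the macrophage markers to 1113 CPM, against 593 to 680 CPM. Outside vehicle 1, Tbx20 was at 185 CPM in vehicle 4 (139 to 146 CPM in the others), Meox1 at 17.6 CPM in DIZE 3 (10.24 to 11.2 CPM in the others), and the endothelial markers summed to 1873 CPM in vehicle 3 (1367 to 1422 CPM in the others).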

How the results depend on the processing

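The number of genes called was 5 over all libraries. It was 606 with DESeq2, 561 with library weights in limma-voom, 386 with no filter, 41 with the GC content and length trend removed, 9 with title form as a block and 1349 in the titles without db alone. It was 0 with library totals only, with the Myl7 covariate, in the titles with db alone and with the replicate block on title numbers, where 2753, 2092, 1132 and 1938 genes had an unadjusted p under 0.05. Leaving out 1 library at a time gave 0 to 240 calls, the most without vehicle 2. The title numbers are shared only in part between the groups and do not pair the samples. The number of factors called was 0, and 1 (Gata4) with DESeq2, with library weights, with no filter and in the titles without db alone. The median log2 fold change of the 10 factors stayed between 0.12 and 0.40.

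Of 230 values of single factors under alternatives, 209 kept their sign and 21 turned it, all of Hand2, Tbx20, Mef2c or Mef2a. Hand2 was at -0.032 with library weights, -0.12 with the GC trend removed and -0.32 with vehicle 1 left out as well. Tbx20 was at 0.0087 with no filter, 0.12 with the replicate block, 0.24 with the GC trend removed, 0.20 without vehicle 1 as well and 0.23 in the titles with db. Mef2c was at 0.0080 with the Myl7 covariate, 0.19 with the GC trend removed, 0.13 without vehicle 1 as well and 0.039 in the titles without db, where Mef2a was at -0.033. With 1 library left out, Hand2 ranged from -0.16 to 0.31, Mef2c from -0.12 to 0.10 and Tbx20 from -0.12 to 0.10. The cause of these differences was not tested. Meox1, with 85 reads in its lowest library, carries the most counting error of the 10.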

Other observations

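The genes whose levels over the 8 libraries were most like those of each factor are given as descriptions. Both groups are pooled, and the genes share the depth and base composition of the libraries. Gata4 was followed most closely by Gtf2ird1 and Rpap1 (Pearson r of 0.99 for both), and Gata6 by the sarcomere assembly factor Fhod3 (0.99) and the RNA-binding gene Rbpms (0.99). Nkx2-5 was most like the ubiquitin ligase subunit gene Asb2 (1.00) and Tysnd1 (0.99), and Tbx5 most like Lrp10 (0.99) and the myosin gene Myo18b (0.99). Mef2d was most like the autophagy genes Atg9a (1.00) and Ulk1 (1.00), and Hand2 most like the calcium channel gene Orai1 (0.96) and the cytoskeletal linker Obsl1 (0.96). Without vehicle 1 these correlations lay between 0.92 and 1.00. Tbx20 was most like Naa50 (0.95) and Ppp2r1b (0.93), Mef2a most like Ehbp1 (0.94) and Zfp521 (0.91), and Mef2c most like Vangl1 (0.97) and Commd10 (0.95). Meox1 was most like Pip4k2a (0.98) and Mxra7 (0.96), at log2 fold changes of -0.34 and -0.59. Their direction follows from the choice, since they were picked for likeness to Meox1 over both groups.

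Erythroid markers lay lower with DIZE in all 5 tested genes, with a median log2 fold change of -1.79 (-1.61 without vehicle 1) and none called. They summed to between 101.3 and 210.0 CPM in vehicle and between 8.95 and 78.4 CPM with DIZE, with no overlap between the groups. Haemoglobin beta Hbb-bt was at 11.7, 5.002, 9.52 and 4.81 CPM in vehicle 1 to 4 and 2.44, 0.26, 1.62 and 3.12 CPM in DIZE 1 to 4, at -2.02 ± 0.49 (SE; edgeR adjusted p = 0.101). The near-identical copies of the globin genes make the values of single genes uncertain.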
